A study of Mus musculus with 18 samples.

Results

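Replication-dependent histone genes and genes of small noncoding RNAs were followed in mouse embryonic stem cells (ESCs) and epiblast-like cells (EpiLCs) exposed to Δ9-tetrahydrocannabinol (Δ9-THC). The genes were taken by symbol from the GENCODE M21 annotation, by a naming rule that uses no measured value but was chosen with earlier results of these data known. They comprise the histone genes named Hist1h to Hist4h, the small nucleolar and Cajal body RNAs named Snora, Snord and Scarna, the small nuclear RNAs named Rnu, the microRNAs named Mir, and the mitochondrial tRNAs and rRNAs named mt-T and mt-Rnr. The gene mt-Tp, Mir6236 and the host genes of small RNAs were left out. The annotation holds 1433 genes that fit these names. Of these, 20 were among the 13104 genes of the ESC table and 33 among the 13717 genes of the EpiLC table, with 19 in both and 34 in either.

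The libraries formed 4 groups of 3. ESCs of a BVSC line, which carry the reporters Blimp1::mVenus and Stella::ECFP, were grown in 2i+LIF medium and received either the ethanol vehicle or Δ9-THC at 100 nM. EpiLCs were derived from such ESCs with activin A, bFGF and serum replacement, again with the vehicle or with Δ9-THC at 100 nM. The exposure was continuous, so the Δ9-THC EpiLCs came from ESCs that had already received it. All 4 groups share the reporter background, and the methods name single clones of these cells, the female H18 and the male R8. The study describes the ESCs of its main data as female, and the labels give no clone for each library. The labels name the 3 numbered libraries of a group biological replicates, and the methods give at least 3 independent repeats per figure as a rule. The sources used here do not say whether the replicates were grown from separate thaws, so p-values measure the spread between these libraries only. PGCLC libraries were not analysed here.

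Most mRNAs end in a poly(A) tail, and replication-dependent histone mRNAs are the main exception. Replication-dependent histone mRNAs are made in S phase, when new chromatin needs histones, and end in a conserved stem-loop that is bound by SLBP in place of a tail. C/D box small nucleolar RNAs (Snord) guide methylation of ribosomal RNA and H/ACA ones (Snora) guide pseudouridylation, and most are cut out of introns of host genes, many of which encode ribosomal proteins. MicroRNA genes give short guides for Argonaute proteins. The mitochondrial 12S (mt-Rnr1) and 16S (mt-Rnr2) rRNAs are transcribed together from the mitochondrial genome and carry only a short tail. The libraries were made from poly(A)-selected RNA, so counts of these genes come from the molecules that passed this selection.

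The totals of the adjusted counts ranged from 23427551 to 32096698 per library. The labelled cell types matched their markers, with Esrrb at 818 to 896 counts per 1000000 (CPM) in ESCs and 24.4 to 38.7 in EpiLCs, and Fgf5 listed in EpiLCs only. Of 13 markers of other cell types, 5 were listed in ESCs and 7 in EpiLCs, the highest at 16.4 CPM. Within each table, a vehicle library and the Δ9-THC library of the same number deviated from their group means in opposite directions, with correlations across genes of -0.987 to -0.977 in ESCs and -0.985 to -0.979 in EpiLCs. The 6 libraries of a table are therefore not independent of each other, which the unblocked test assumes, and values with the replicate number as a block stand beside each call.

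Classes differed in how many of their genes were counted at all. Histone genes were listed for 11 of 70 annotated genes in ESCs and 18 of 70 in EpiLCs. None of the 20 H2A genes was listed in either cell type, against 7 of 19 H2B, 5 of 6 H1, 3 of 12 H3 and 3 of 13 H4 genes in either table. Small nucleolar RNAs were listed for 3 of 42 Snora genes, and for 2 of 99 Snord genes in ESCs and 7 of 99 in EpiLCs. MicroRNA genes reached the tables for 2 of 1168 in ESCs and 3 of 1168 in EpiLCs. The mitochondrial rRNAs were listed 2 of 2 in both, while 0 of 21 mitochondrial tRNAs, 0 of 9 Scarna and 0 of 22 Rnu genes were. Genes absent from a table were not analysed here.

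The stem-loop of histone mRNAs was searched in the annotated transcripts of GENCODE M21, on the sense strand only, as a pattern of 16 bases that was set after the listed genes had been viewed. It was found in 14 of 18 listed histone genes (77.8%), in 29 of the 49 protein-coding histone genes that were not listed (59.2%), and in 18 of 21884 other protein-coding genes (0.0823%). The versions below are those of the called histone genes of ESCs and of genes of each other class, with 4 bases before and 10 bases after, the stem-loop in capitals, and Hist1h1a with its last 30 annotated bases.
Hist1h1d: aaacGGCTCTTTTCAGAGCCacccacaacc
Hist1h3e: aaacGGCTCTTTTAAGAGCCacctccatta
Hist1h3g: taaaGGCTCTTCTTAGAGCCacccatcttc
Hist1h4i: taaaGGCCCTTTTTAGGGCCaccacaaaat
Hist1h2bk: caaaGGCTCTTTTAAGAGCCactaaaccac
Hist1h1a: tataaataacccaacGGCTCTTTTCAGAGC
The Hist1h1a transcript model stopped within the stem-loop, whereas the models of the other 5 genes went on past it. Hist1h1b, Hist1h2bc and Hist2h2be had no match to these letters.

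The annotated length after the stem-loop varied widely among the listed histone genes. Hist1h1d, a linker histone H1 gene, has a transcript model of 7425 bases with 4884 bases after the stem-loop. Hist1h2be has 1861 such bases, Hist1h1e 1153 and Hist1h1c 840. At the other end, Hist1h2bj has 23 and Hist1h2bk 30. Of the annotated histone genes with more than 100 bases after the stem-loop, 10 of 22 were listed in a table, against 4 of 21 with up to 100 bases and 4 of 24 with no match. The median length of the models in these sets was 1255, 485 and 408 bases, and a model with no match may end before the stem-loop. Whether the shares follow from model length was not tested. The median length of the longest transcript was 742 bases in listed and 488 in unlisted histone genes. The polyadenylation hexamer AATAAA began within the last 50 bases of the transcript in 4 of the 18 genes, Hist1h1c, Hist2h2be, Hist3h2ba and Hist1h4a.

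**Figure D1:**
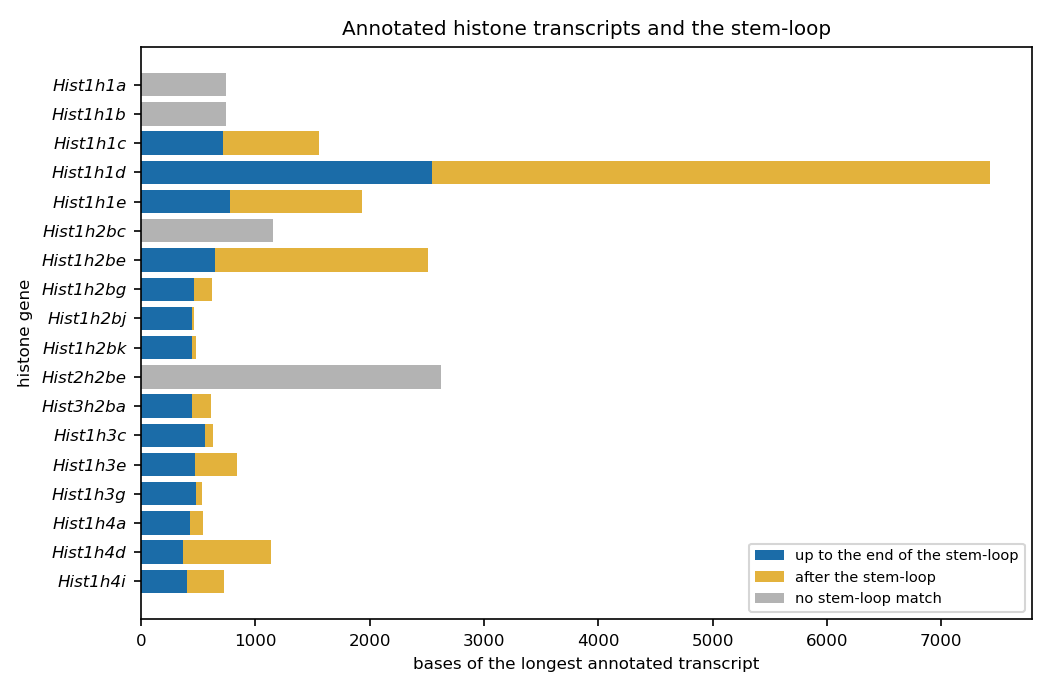
Bars give the bases of the longest annotated transcript of the 18 listed histone genes, split at the end of the stem-loop. Hist1h1d stands out with 4884 bases after the stem-loop, while Hist1h2bj and Hist1h2bk have 23 and 30, and grey bars mark the 4 genes without a match.

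Counting of histone genes is limited by their likeness. The H2B gene Hist1h2bc shares stretches of at least 95% identity with 12 other annotated genes, Hist1h3g with 8 and Hist1h3e with 5, and since only uniquely mapped reads were kept, their values rest on the bases that differ between copies. Hist1h1d, Hist1h1a, Hist1h1c and Hist2h2be have no such copy. In GENCODE M21, Hist1h1e shares 25.7% of its exonic bases with overlapping models. Union-mode counting gives reads there to no gene if the authors' annotation holds the same models, which was not checked.

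For the C/D box snoRNAs, the C box was searched as TGATGA in the first 50 bases and the D box as CTGA in the last 30 of the sense strand, and both were found in 72 of 99 annotated Snord genes (72.7%) and in 0 of 42 Snora genes. The 5 genes with an unadjusted p under 0.05 in EpiLCs and the one with the highest log2 fold change there are shown with these boxes in capitals, from GENCODE M21 on GRCm38.
Snord49a (chr11:62603450-62603521, + strand): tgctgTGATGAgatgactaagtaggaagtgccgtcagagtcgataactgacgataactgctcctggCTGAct
Snord43 (chr15:80082847-80082954, - strand): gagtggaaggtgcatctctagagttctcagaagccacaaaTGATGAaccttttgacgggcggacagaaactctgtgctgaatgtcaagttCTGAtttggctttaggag
Snord72 (chr15:5118404-5118484, + strand): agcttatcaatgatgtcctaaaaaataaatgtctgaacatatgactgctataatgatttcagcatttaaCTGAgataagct
Snord73a (chr3:86138791-86138858, - strand): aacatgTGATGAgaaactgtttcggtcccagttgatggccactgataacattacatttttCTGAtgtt
Snord83b (chr15:80078498-80078591, - strand): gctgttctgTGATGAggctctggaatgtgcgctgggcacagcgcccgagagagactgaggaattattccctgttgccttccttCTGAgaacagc
Snord104 (chr11:106500993-106501062, + strand): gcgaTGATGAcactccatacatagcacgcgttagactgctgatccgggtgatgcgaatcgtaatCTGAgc
Snord72 had a D box but no exact TGATGA. Snord43, which the annotation types as a microRNA gene, and Snord83b both lie within Rpl3, which encodes a large-subunit ribosomal protein. Snord72 lies within Rpl37 and Snord73a within Rps3a1, also ribosomal protein genes, and Snord49a within the noncoding gene 2410006H16Rik.

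One mature microRNA of each of the 4 listed Mir genes is given from RefSeq (GRCm38.p6) with the seed, bases 2 to 8, in capitals, and these 4 share no seed. The 3p forms of miR-196a-1 and miR-7688 are not shown.
miR-703: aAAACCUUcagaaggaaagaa
miR-5125: uCUGCCUGggauuuccuugu
miR-196a-5p: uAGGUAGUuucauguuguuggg
miR-7688-5p: uAGCUGGGcaugaucugaugagc
The counts of a Mir gene here come from long RNA fragments over its hairpin and do not measure these mature forms. The hairpin of Mir703 matches Eef1a1, the elongation factor gene, as well as Gm26377 and Gm26384 with at least 95% identity, so its reads are uncertain in origin. Mir5125 lies within Srrm2, which encodes a splicing factor.

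Per kilobase of exonic sequence, mt-Rnr2 was the highest of all in the vehicle group, with a mean of 458 CPM per kb in ESCs and 702 in EpiLCs, followed by mt-Rnr1 with 149 and 522. Of the snoRNAs, Snora17 was highest in both cell types, with 29.5 CPM per kb in ESCs and 86.1 in EpiLCs. The highest Snord gene was Snord49a in ESCs, with 14.9 CPM per kb, and Snord83b in EpiLCs, with 28.2. Among Mir genes, Mir196a-1 led in ESCs with 15.9 CPM per kb and Mir5125 in EpiLCs with 42.6. Histone genes were led by Hist1h2bc with 4.03 CPM per kb in ESCs and by Hist1h4i with 6.45 in EpiLCs. The lowest level per kb belonged to Hist1h1d in ESCs, at 0.0790, over its long model. The tables of the cell types were adjusted separately, so levels set across them were not tested. Together, the 2 rRNAs held 0.0834% to 0.104% of the counts of an ESC library and 0.114% to 0.239% of an EpiLC library, and the other genes 24.0 to 30.9 of every 1000000 counts in ESCs and 52.6 to 75.8 in EpiLCs.

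**Figure D2:**
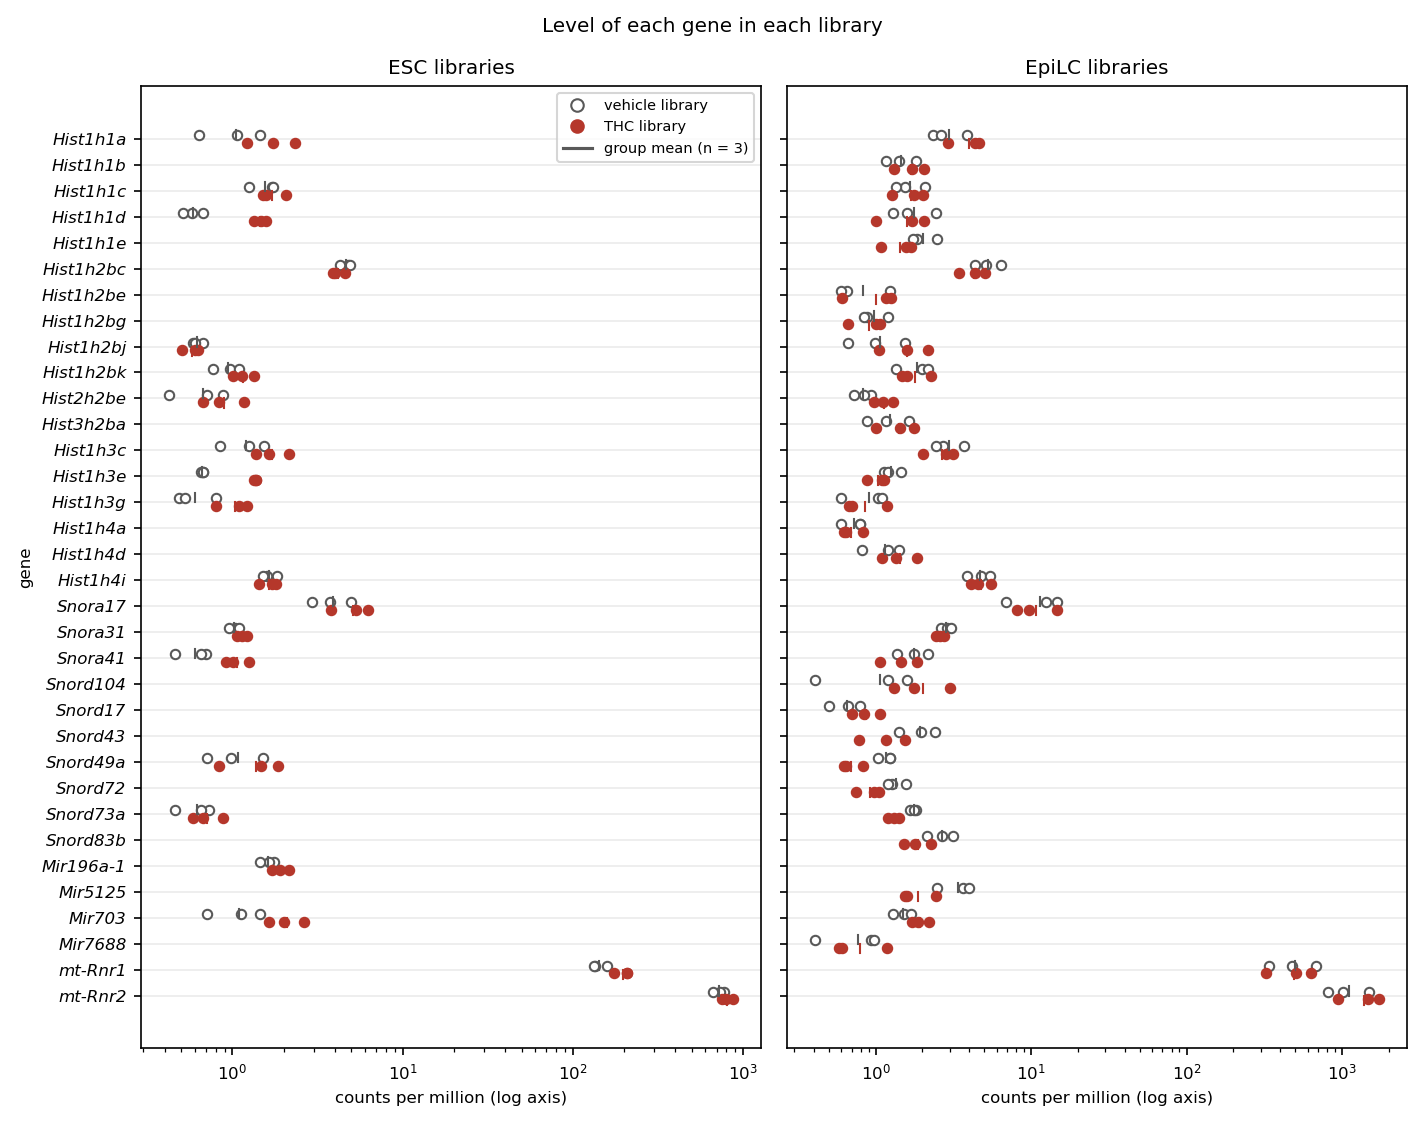
Points give CPM on a log axis for each of the 34 genes in the 3 vehicle and 3 Δ9-THC libraries of ESCs (left) and EpiLCs (right), and short lines mark group means. In ESCs the groups of Hist1h1d and Hist1h3e lie apart, and except for the rRNAs no gene exceeds 14.7 CPM in any library.

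In ESCs, histone and mitochondrial rRNA genes included the only calls. With edgeR's quasi-likelihood test and Benjamini-Hochberg adjustment, 3 of the 20 genes rose with Δ9-THC at an adjusted p of at most 0.05, and 0 fell. Over all genes tested, 6.91% were called, 3.37% as higher and 3.55% as lower. DESeq2 called 1 of the 20, mt-Rnr1, and 5.79% of all genes. It gave no adjusted p for 16 of the 20, Hist1h1d and Hist1h3e among them. The log2 fold change was above 0 for 17 of the 20 genes, against 51.1% of all genes, and its median was 0.38 against 0.0041 over all genes. It exceeded 0.25 for 12 of the 20 and lay under -0.25 for 0, compared with 7.82% and 7.46% of all genes. These genes had few counts, with a median of 36.1 per library against 651 over all genes.

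Hist1h1d (ENSMUSG00000052565), at chr13:23553262-23560686 of GRCm38, encodes a linker histone that binds DNA between nucleosomes. Its vehicle libraries held 19, 14 and 19 counts and its Δ9-THC libraries 35, 47 and 32. This is 0.587 ± 0.0805 CPM (SD, n = 3) against 1.46 ± 0.116. The groups did not overlap, and the log2 fold change was 1.31 (SE 0.14, Benjamini-Hochberg adjusted p = 0.0271 by edgeR). Hist1h3e, a gene of the core histone H3, had 22, 18 and 19 counts with the vehicle and 33, 41 and 32 with Δ9-THC, or 0.666 ± 0.00801 CPM (SD, n = 3) against 1.37 ± 0.0211. All Δ9-THC libraries were again above all vehicle libraries, and the log2 fold change was 1.03 (SE 0.11, Benjamini-Hochberg adjusted p = 0.0265 by edgeR). Both genes are neighbours, 847 bases apart with their 3′ ends facing each other (Hist1h3e at chr13:23561534-23562369, - strand).

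For the called histone genes, the measured spread lay below the counting SD, which comes from the square root of the mean count. For Hist1h3e, a mean of 19.7 counts has a counting SD of 0.15 CPM, against a measured SD of 0.00801. For Hist1h1d, the counting SD was 0.141 CPM with the vehicle, against a measured SD of 0.0805. The edgeR SEs without the block, 0.14 for Hist1h1d and 0.11 for Hist1h3e, rest on this narrow spread. With the replicate block they were 0.31 and 0.30, and in DESeq2 0.38 and 0.37. The unblocked SEs and p-values of these 2 genes may therefore be too small. In ESCs, 10 of 18 genes other than the rRNAs had a vehicle SD below their counting SD, and 31.7% of all genes did. The shares in the Δ9-THC group were 10 of 18 and 33.0%.

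The mitochondrial rRNAs differed in their calls. The 12S rRNA gene mt-Rnr1 had 135, 134 and 159 CPM in the vehicle libraries and 207, 209 and 174 with Δ9-THC. The groups did not overlap and it rose by a log2 fold change of 0.47 (SE 0.09, Benjamini-Hochberg adjusted p = 0.042 by edgeR). The 16S rRNA gene mt-Rnr2 had 770, 738 and 667 CPM with the vehicle and 758, 795 and 875 with Δ9-THC, where the groups overlapped and the adjusted p of edgeR was 0.197. Its log2 fold change was 0.16 (SE 0.07).

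None of the 3 calls held with the replicate block or with a library left out. When the replicate number was added as a block, 0 of the 20 genes were called, with Benjamini-Hochberg adjusted p of 0.414 for Hist1h1d and Hist1h3e and 0.351 for mt-Rnr1 in edgeR, and 5 of 13104 genes (0.0382%) were called overall. The log2 fold changes stayed at 1.31, 1.03 and 0.47. With the block, the unadjusted p of edgeR rose from 5.39e-05 to 0.00103 for Hist1h1d and from 4.13e-05 to 0.00443 for Hist1h3e. For mt-Rnr1 it fell from 0.0020 to 0.000215, so that call was lost in the adjustment over all genes. Leaving out any 1 of the 6 libraries also left 0 of the 20 called, and at most 1 of all 13104 genes. Benjamini-Hochberg adjusted p was then 0.0721 to 0.134 for Hist1h1d and Hist1h3e and 0.0806 to 0.138 for mt-Rnr1 in edgeR.

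Other histone genes had values on both sides of 0. Of the 11 histone genes, 8 had a log2 fold change above 0, with a median of 0.42. Among H1 genes, Hist1h1a had 0.639, 1.06 and 1.45 CPM with the vehicle and 2.35, 1.74 and 1.22 with Δ9-THC, and its groups overlapped (log2 fold change 0.77, SE 0.34). Hist1h1c differed by 0.13 (SE 0.18). The 3 H3 genes had log2 fold changes of 0.49 to 1.03. In Hist1h3g, with 0.487, 0.803 and 0.530 CPM against 1.21, 0.803 and 1.09, the highest vehicle library reached the lowest Δ9-THC library to 3 digits. The H2B genes were mixed, from -0.16 for Hist1h2bc, the lowest of all, to 0.42 for Hist2h2be. Hist1h4i, the only H4 gene listed, had 1.65 ± 0.159 CPM against 1.64 ± 0.197 (SD, n = 3).

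**Figure D3:**
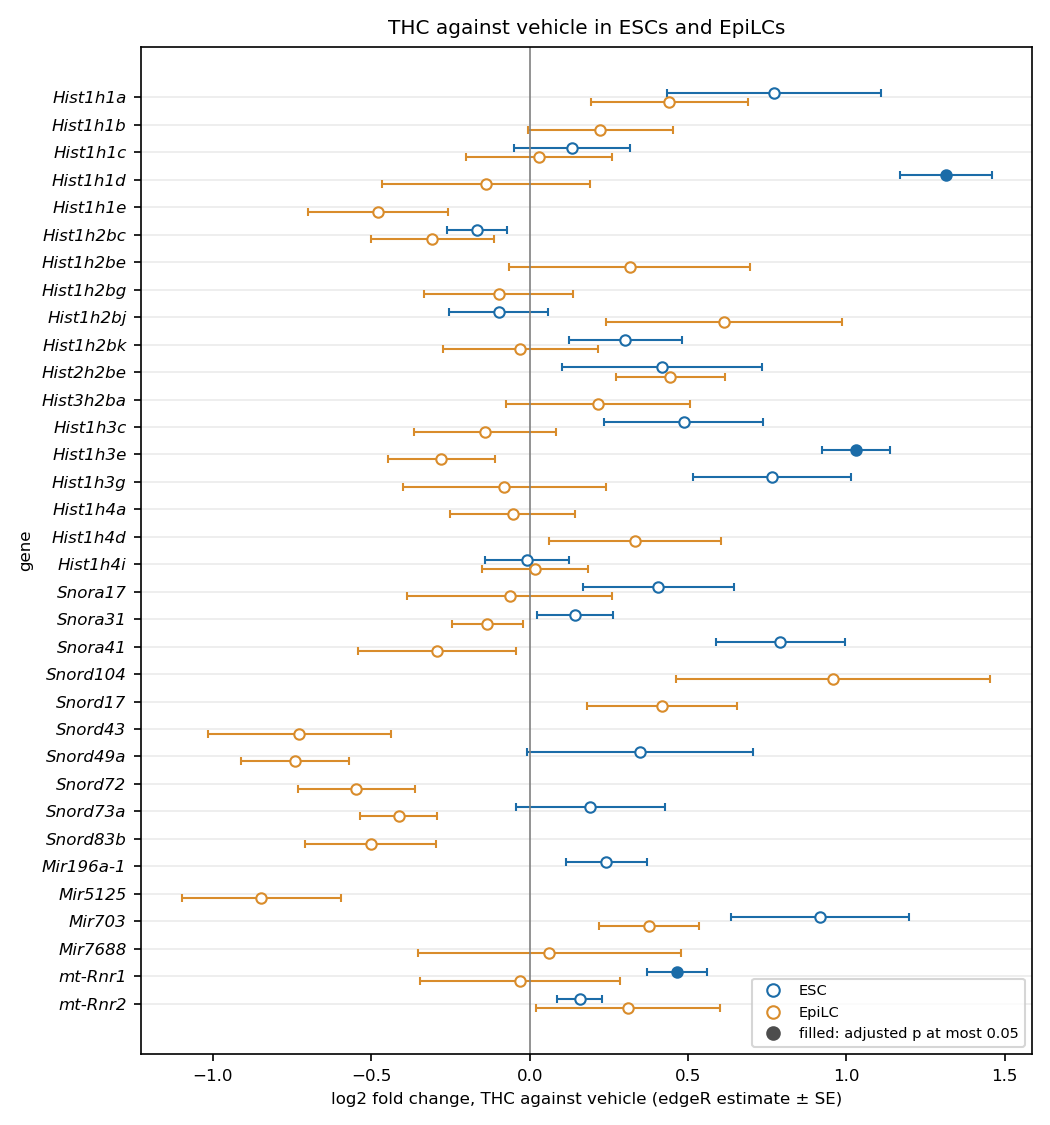
Points give the edgeR log2 fold change of Δ9-THC against vehicle with its SE for each gene, in ESCs (blue) and EpiLCs (orange), filled at an adjusted p of at most 0.05. Only Hist1h1d, Hist1h3e and mt-Rnr1 in ESCs are filled, and the blue points lie above 0 for 17 of 20 genes.

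Small RNAs of ESCs had values above 0 throughout in the fit without offsets, but 0 calls. In either cell type, reads over a snoRNA within an intron were not told apart from unspliced host RNA. Their counts therefore need not measure the mature snoRNA. The 5 snoRNA genes had log2 fold changes of 0.14 to 0.79 (median 0.35). The largest was Snora41, with 0.7004, 0.657 and 0.459 CPM in vehicle and 0.922, 1.00 and 1.26 in Δ9-THC libraries. Its groups did not overlap (log2 fold change 0.79, SE 0.20, Benjamini-Hochberg adjusted p = 0.0636 by edgeR), while Eef1b2, the gene whose intron holds it, had a log2 fold change of -0.04 (SE 0.07). Snora17, the highest snoRNA, had 3.75, 2.95 and 4.98 CPM against 5.32, 6.26 and 3.77, with overlap between the groups. Mir703 had 1.13, 1.46 and 0.706 CPM against 2.01, 1.64 and 2.64, without overlap (log2 fold change 0.92, SE 0.28, Benjamini-Hochberg adjusted p = 0.0923 by edgeR), and Eef1a1, which its hairpin matches, had one of -0.04. Mir196a-1 differed by 0.24 (SE 0.13). In all, the groups of 6 of the 20 genes did not overlap, each with Δ9-THC higher, against 16.7% of all genes.

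Base composition moved with these values. Over the 13083 ESC genes with an annotation, GC content and log2 fold change had a rank correlation of -0.536 (Spearman), a description over genes that share libraries. Offsets that remove each library's trend with GC content and length took the median of the 20 genes from 0.38 to 0.23 and left 14 above 0 and 0 called (2 of 13104 genes, 0.0153%, were called overall). The 2 rRNAs, with GC contents of 35.8% and 35.4%, went to 0.19 and -0.10, Mir703 with 31.2% to 0.39, and the median of the snoRNAs to 0.09. Of the 5 snoRNA genes, 3 stayed above 0, while Snora31 went to -0.08 and Snord73a to -0.23. The histone genes, with a median GC content of 54.5%, kept a median of 0.35, with Hist1h1d at 1.18 and Hist1h3e at 1.03 (Benjamini-Hochberg adjusted p = 0.0814 and 0.0645 by edgeR). With the block as well, those adjusted p-values were both 0.927.

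**Figure D4:**
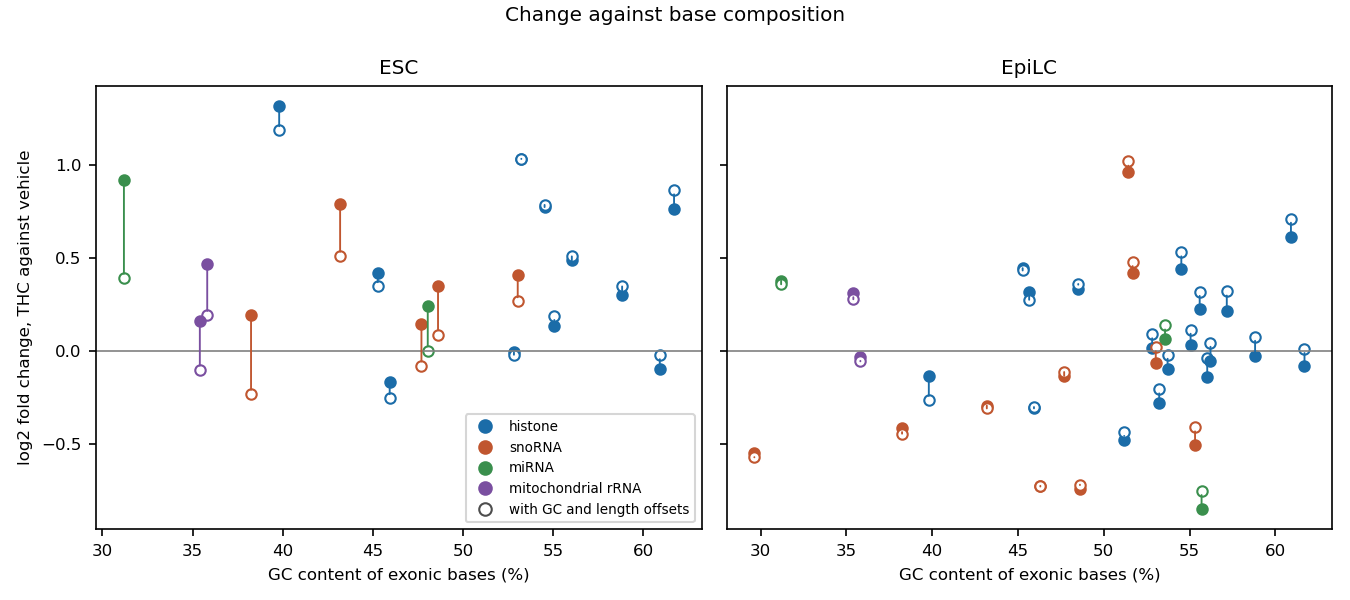
The log2 fold change of Δ9-THC against vehicle is plotted over the GC content of each gene in ESCs (left) and EpiLCs (right), filled without and open with the GC and length offsets, coloured by class. In ESCs mt-Rnr2 moves from 0.16 to -0.10 and Mir703 from 0.92 to 0.39, whereas Hist1h3e stays at 1.03.

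In EpiLCs, none of the 33 genes was called by edgeR after Benjamini-Hochberg adjustment, as none of the 13717 genes was (0%). At an unadjusted p under 0.05 stood 6 of the 33, against 15.1% of all genes (2069), and these 6 were lower and 0 higher, against 6.8% and 8.28% of all genes. DESeq2 called 87 genes (0.634%), none of them among the 33, of which 25 had no adjusted p from it. The log2 fold change was above 0 for 14 of the 33, against 50.7% of all genes, with a median of -0.05 against 0.0030 over all genes. With the GC and length offsets 18 of the 33 were above 0, with a median of 0.02 against -0.016 over all genes. GC content and log2 fold change had a rank correlation of -0.299 (Spearman) over the 13696 EpiLC genes with an annotation.

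The 6 genes with an unadjusted p under 0.05 were 5 of the 7 Snord genes and Mir5125, all lower. Snord49a had 1.24, 1.04 and 1.24 CPM with the vehicle and 0.624, 0.826 and 0.641 with Δ9-THC (log2 fold change -0.74, SE 0.17, Benjamini-Hochberg adjusted p = 0.172 by edgeR). Snord73a had 1.82, 1.67 and 1.77 CPM against 1.21, 1.42 and 1.32. Snord72 had 1.27, 1.57 and 1.20 against 0.974, 0.748 and 1.05. The groups of these 3 genes did not overlap. Snord43, with 1.96, 2.42 and 1.42 CPM against 1.17, 0.787 and 1.55, and Snord83b, with 2.68, 2.14 and 3.14 against 1.79, 2.28 and 1.52, had overlapping groups. Mir5125 had 3.64, 2.48 and 3.98 CPM against 1.60, 2.44 and 1.55, without overlap, the lowest log2 fold change of the 33 (-0.85, SE 0.25, Benjamini-Hochberg adjusted p = 0.218 by edgeR). With the replicate block, 1 of the 33 genes, Mir5125, had an unadjusted p under 0.05, against 2.12% of all genes, and the adjusted p in edgeR was 0.999 for each of the 6.

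Host genes had smaller values. Rpl3, which holds Snord43 and Snord83b, had a log2 fold change of -0.12 (SE 0.09), Rpl37 -0.15 (SE 0.17), Rps3a1 -0.12 (SE 0.10) and 2410006H16Rik -0.06 (SE 0.19). Srrm2 had 0.18 (SE 0.10), opposite in sign to its Mir5125. No difference between a small RNA and its host was tested. The counts of the small RNAs were 0.0725% to 0.228% of those of their host for the 4 in ribosomal protein genes, 0.358% for Mir5125 and 1.18% for Snord49a.

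The other 2 Snord genes had values above 0. Snord104 had 1.20, 0.409 and 1.59 CPM with the vehicle and 1.75, 2.99 and 1.32 with Δ9-THC, the highest log2 fold change of the 33 (0.96, SE 0.50), with overlapping groups. Snord17, in Snx5, differed by 0.42 (SE 0.24). Over all 10 snoRNA genes, 8 were below 0 with a median of -0.35, and the 3 Snora genes had values of -0.29 to -0.06. The GC and length offsets left this median at -0.36. Of the miRNA genes, Mir703 had 1.51, 1.29 and 1.68 CPM against 1.87, 2.20 and 1.72, without overlap (log2 fold change 0.38), and Mir7688 differed by 0.06 (SE 0.41).

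Histone genes of EpiLCs lay on both sides of 0, with 9 of 18 above and a median of -0.01. With the GC and length offsets 12 of 18 were above 0, with a median of 0.08. Without the offsets they ran from -0.48 for Hist1h1e to 0.61 for Hist1h2bj. Hist1h1e had 1.85, 1.73 and 2.48 CPM in vehicle and 1.56, 1.69 and 1.08 in Δ9-THC libraries. The gene Hist1h1d had 1.58, 1.29 and 2.43 CPM against 1.71, 2.05 and 1.01 and Hist1h3e 1.13, 1.19 and 1.46 against 1.13, 1.10 and 0.877. In Hist1h3e the groups did not overlap, with Δ9-THC lower, by 0.28 on the log2 scale (SE 0.17), though 1 vehicle and 1 Δ9-THC library were equal to 3 digits. The remaining 14 had log2 fold changes of -0.31 to 0.44. Both rRNAs had overlapping groups, mt-Rnr1 with 473, 339 and 685 CPM against 507, 632 and 327, and mt-Rnr2 with 1021, 815 and 1497 against 1470.1, 1724 and 941. Over all 33 genes, the groups of 2 did not overlap with Δ9-THC higher and of 6 with Δ9-THC lower, against 11.2% and 10.6% of all genes.

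Responses were compared between the cell types by an interaction term for the 19 genes in both tables. With edgeR and Benjamini-Hochberg adjustment, 0 of the 19 were called, and 4 of 12410 genes (0.0322%). The smallest adjusted p was that of Hist1h3e, at 0.0526, with a log2 fold change lower by 1.29 in EpiLCs than in ESCs (SE 0.22). The ESC libraries of Hist1h3e had a spread below counting error, so this SE and p may be too small. Hist1h1d had a difference of -1.43 (SE 0.41, adjusted p = 0.153) and mt-Rnr1 of -0.48 (SE 0.35, adjusted p = 0.588). Since these tests compare separately adjusted tables, they rest on each table's own contrast.

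The lists that follow are read against 3.37% of all ESC genes called higher and 3.55% called lower. Of 17 factors of histone mRNA 3′ ends, 2 rose in ESCs by edgeR with Benjamini-Hochberg adjustment, Slbp, the stem-loop binding protein (log2 fold change 0.25), and Cpsf2, a subunit of the cleavage complex (0.11), and 0 fell. Of 24 genes of DNA replication and S phase, 2 rose, Slbp again and Ccne2 (0.43), a cyclin of the entry into S phase, and their median was 0.05. Of 20 snoRNP and scaRNP proteins, Gar1, a core protein of H/ACA snoRNPs, rose (0.21). Of 17 measured genes for mitochondrial RNA, Tfam (0.22), Trnt1 (0.30) and Pnpt1 (0.15) rose and Polrmt, the mitochondrial RNA polymerase, fell (-0.21). None of 10 miRNA processing genes and none of 19 measured genes of nuclear RNA tail trimming and decay was called. With the replicate block, 0 genes of these lists were called. In EpiLCs 0 were called in any list, with medians of -0.16 for the snoRNP and scaRNP proteins (2 of 20 above 0) and -0.13 for DNA replication and S phase (3 of 24 above 0), against a median of 0.0030 and 50.7% above 0 over all genes.

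The 11 histone variants listed as replication-independent were taken to have mRNAs with poly(A) tails, which was not checked for each gene. Their difference from the replication-dependent genes was not tested. In ESCs, 4 of the 11 variants were above 0 with a median of -0.03, and 2 fell by edgeR with Benjamini-Hochberg adjustment, H1fx, a linker histone variant (log2 fold change -0.82), and H2afx (-0.27), which is phosphorylated at DNA breaks. With the replicate block both calls were lost (adjusted p = 0.414 in edgeR for each). The unadjusted p of edgeR then went from 0.0032 to 0.00096 for H1fx and from 0.0022 to 0.0025 for H2afx. With the GC and length offsets H1fx went to -0.49 and H2afx to -0.11 (adjusted p = 0.233 and 0.292 in edgeR). In EpiLCs 4 of 11 were above 0, with a median of -0.05 and 0 calls.

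Summed over the 18 genes other than the rRNAs, the level in ESCs was 24.2, 24.5 and 23.8 CPM with the vehicle and 30.9, 30.7 and 31.2 with Δ9-THC. The SDs were 0.337 and 0.282 CPM. This narrow spread does not measure reproducibility, since the libraries mirror each other and many of these genes had SDs below counting error. In EpiLCs, the sum over 31 genes was 66.1, 53.0 and 78.3 CPM against 60.7, 74.9 and 51.1, so vehicle replicate 3 and Δ9-THC replicate 2 were high and vehicle replicate 2 and Δ9-THC replicate 3 low. A gene without a symbol in GENCODE M21, ENSMUSG00000119584, had 5969, 4682 and 6337 CPM in vehicle and 26439, 32565 and 24903 in Δ9-THC ESCs, and Lars2 and mt-Tp were also higher in all 3 Δ9-THC libraries. These 3 genes, unlike the histone and small RNA genes above, stayed called with the replicate block (Benjamini-Hochberg adjusted p = 3.76e-06, 0.00269 and 0.0163 in edgeR). In EpiLCs the gene without a symbol had 7675, 22110.4 and 40201 CPM against 40407, 17722 and 4035, which does not follow the order of the sums. Lars2 had 458, 347 and 627 CPM against 448, 547 and 313, in the order of the sums. The part of these genes in the values of the histone and small RNA genes was not tested.

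The balance of the mitochondrial rRNAs also differed between libraries. Per length, mt-Rnr1 stood to mt-Rnr2 at 0.290, 0.3004 and 0.396 in vehicle and 0.453, 0.436 and 0.330 in Δ9-THC ESCs (two-sided exact permutation test, p = 0.2, where 0.1 is the smallest p possible with 3 against 3). In EpiLCs the ratio was 0.767, 0.689 and 0.758 with the vehicle and lower in each Δ9-THC library, at 0.571, 0.607 and 0.575 (two-sided exact permutation test, p = 0.1). Both tests treat the libraries of a cell type as exchangeable, although those of the same number mirror each other, and no blocked test was run.

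**Figure D5:**
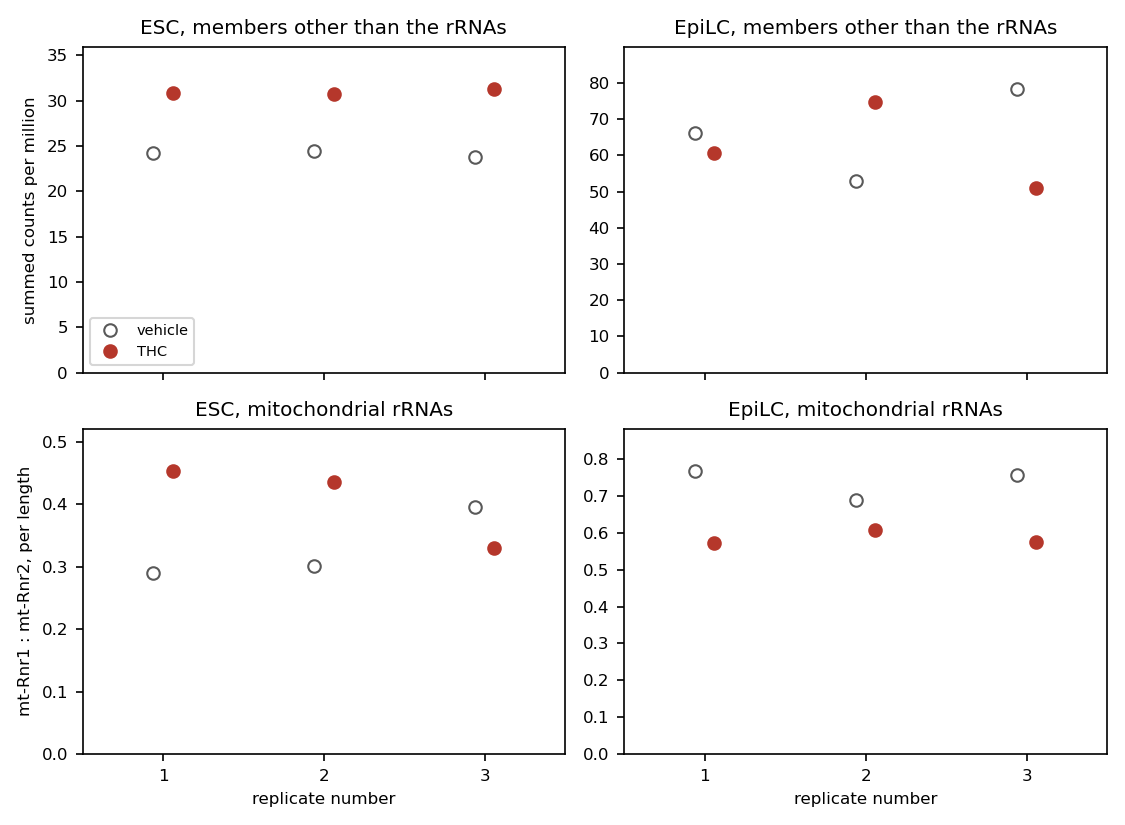
Top panels give the summed CPM of the genes other than the rRNAs and bottom panels the ratio of mt-Rnr1 to mt-Rnr2 per length, for each library by replicate number, open with the vehicle and filled with Δ9-THC. In ESCs the sums lie at 23.8 to 24.5 and 30.7 to 31.2, in EpiLCs they overlap, and the ratio separates the groups in EpiLCs only. The libraries mirror each other, so the narrow spread of the ESC sums does not measure reproducibility.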

How the data were processed

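RNA was sequenced from poly(A)-selected libraries of mouse ESCs and EpiLCs, 3 per group. From paired reads aligned by STAR, the authors took unique alignments into unstranded HTSeq counting (union mode), left out low genes and adjusted the counts with ComBat-seq, whose batches are not named in the sources used here. Each of the 2 deposited tables holds such adjusted counts of a cell type, in whole numbers and with no scaling by library size. All 12 columns were assigned by their labels. The genome is named both as mm10 and as GRCm39, so positions only describe genes.

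Δ9-THC was compared with vehicle by edgeR 4.0.16 (quasi-likelihood test, TMM) on all genes of a table with more than 10 counts in total, and called at a Benjamini-Hochberg adjusted p of at most 0.05. The SE is implied by the F statistic. An interaction term over 12 libraries compared the cell types. CPM used TMM-scaled library sizes, and the level per kb the exonic length of a gene. Copies were found with blastn 2.17.0. In simulated counts with a log2 fold change of 1 in 200 genes, edgeR recovered 99% in each table, with 4.81% of calls false in ESCs and 6.6% in EpiLCs. The simulated libraries were independent, and the changed genes were drawn from the whole table. These shares therefore do not apply to mirrored libraries or to genes with few counts.

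The members and lists were chosen with earlier results of these data known. The rule for named genes takes genes called in any test, the highest per kb of each class, the genes with the largest and smallest log2 fold change of a class, and the rRNAs. Other genes are named to account for the members, after their values were seen. Alternatives were RLE normalization, other filters, DESeq2 1.42.0, the replicate number as a block, offsets for GC content and length (splines of 5 degrees of freedom), those with the block, all 12 libraries, library sizes without these RNAs, and each library left out. Counting error limits the values of genes with few counts.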

Additional observations from a re-analysis of the deposited data

How the results depend on the processing

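In ESCs, the 3 calls held with RLE normalization, other filters and other library sizes. DESeq2 called 1 gene, mt-Rnr1, with no adjusted p for 16 of the 20 genes. With 12 libraries 1 gene was called, Hist1h3e, against 31 of all 12410 genes. The replicate block, the GC and length offsets, both together or any library left out gave 0 calls among the 20. Those runs called at most 5 of all 13104 genes. The cause of these differences was not tested. Vehicle and Δ9-THC libraries of the same number mirrored each other (correlations of -0.987 to -0.977, other pairs 0.223 to 0.695), so the numbers tie the libraries, in opposite directions. The replicate block was kept as an alternative, and under it 0 of the 20 histone and small RNA genes were called in ESCs and 0 of the 33 in EpiLCs. In EpiLCs and in the interaction, 0 of the histone and small RNA genes were called in each alternative run. Of all genes, 411 of 12410 were called in EpiLCs with 12 libraries and 87 of 13717 with DESeq2. In the interaction, DESeq2 called 133 of 12410, and the other runs called at most 4 of all genes. Low counts limit the precision for most of these genes.

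With the GC and length offsets, and then with the block added, the median log2 fold change in ESCs was 0.229 and 0.225 for all these genes, 0.0458 and 0.0464 for the mitochondrial rRNAs and 0.197 and 0.205 for the miRNA genes. With 12 libraries the miRNA median was 0.90 in ESCs and 0.378 in EpiLCs, where 1 Mir gene is left. With a library left out, medians ranged in ESCs from 0.27 to 0.37 for all and from 0.32 to 0.65 for the histone genes, and in EpiLCs from -0.22 to 0.13 for all and from -0.34 to 0.25 for the miRNA genes. Under the offsets, without and with the block, the log2 fold change turned in ESCs for Snora31 (-0.0785 and -0.0780), Snord73a (-0.231 and -0.224) and mt-Rnr2 (-0.101 and -0.101), and in EpiLCs for Hist1h2bk (0.0771 and 0.0758), Hist1h3g (0.0115 and 0.00784), Hist1h4a (0.0452 and 0.0446) and Snora17 (0.0210 and 0.0315). Leaving out a library turned 2 of 20 genes in ESCs, Hist1h1c (-0.0130 to 0.213) and Hist1h4i (-0.0712 to 0.0804), and 11 of 33 in EpiLCs, Hist1h1c (-0.129 to 0.2100), Hist1h1d (-0.371 to 0.141), Hist1h2bg (-0.224 to 0.0848), Hist1h2bk (-0.252 to 0.0983), Hist1h3c (-0.286 to 0.0463), Hist1h3g (-0.390 to 0.0685), Hist1h4a (-0.200 to 0.0203), Hist1h4i (-0.125 to 0.127), Mir7688 (-0.341 to 0.253), Snora17 (-0.354 to 0.163) and mt-Rnr1 (-0.271 to 0.269).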
